A study of Mus musculus with 6 samples.

Results

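The 10 genes described here encode SOX transcription factors, and they are the rows for Sox2, Sox4, Sox6, Sox7, Sox9, Sox11, Sox12, Sox17, Sox18 and Sox21 among the 35027 genes of the expression table. They were taken by name. RNA-seq was done on cells positive for the red fluorescent reporter Kate, sorted from mouse thyroid tumors. All mice carried a Cre recombinase active in thyroid follicular cells, the doxycycline-dependent activator RIK-rtTA with Kate, and tetO-YAP S127A, a YAP that stays in the nucleus. YAP tumors had these alleles alone, and BrafYAP tumors also had LSL-Braf V600E, an activated Braf kinase switched on at its own locus by Cre. The labels give doxycycline chow from 4 weeks of age for both groups. There were 3 YAP libraries (replicates 1, 2 and 3) and 3 BrafYAP libraries (replicates 1, 2 and 6), from about 20000 sorted cells each. Each YAP library held 3 pooled tumors and each BrafYAP library 1 tumor, so genotype and pooling cannot be told apart. No group without mutant YAP was analysed here.

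SOX factors bind DNA through an HMG box, a domain that inserts into the minor groove and bends the helix. Members with the most similar boxes form groups that often act in the same tissues. Sox9 (SoxE) directs cartilage, testis and many epithelial progenitors, the SoxC genes Sox4, Sox11 and Sox12 act in progenitor and neuronal cells, and the SoxF genes Sox7, Sox17 and Sox18 are known for vascular development, Sox17 also for endoderm. Sox2 (SoxB1) maintains stem and foregut cells, Sox21 (SoxB2) counters SoxB1 factors in neural progenitors, and Sox6 (SoxD) lacks a domain that activates transcription and works with Sox9 in cartilage.

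The coding stretch of the HMG box is printed for 4 members, because the results turn on telling close members apart by 50-base reads. Each runs 5′ to 3′ on the coding strand over 79 codons of mm10. Capitals mark the codons of a protein stretch shared across the family, near the start of the box. The bases of these codons differ between some members.
Sox9: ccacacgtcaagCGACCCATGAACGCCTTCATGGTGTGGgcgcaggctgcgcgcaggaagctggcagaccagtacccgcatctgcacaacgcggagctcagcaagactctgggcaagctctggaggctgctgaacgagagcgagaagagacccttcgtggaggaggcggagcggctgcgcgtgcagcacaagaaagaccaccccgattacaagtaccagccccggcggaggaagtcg
Sox4: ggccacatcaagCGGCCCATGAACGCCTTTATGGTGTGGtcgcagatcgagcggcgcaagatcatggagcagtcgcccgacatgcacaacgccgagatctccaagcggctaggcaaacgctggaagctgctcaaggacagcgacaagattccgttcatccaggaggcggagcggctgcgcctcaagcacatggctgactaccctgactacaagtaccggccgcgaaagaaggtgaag
Sox11: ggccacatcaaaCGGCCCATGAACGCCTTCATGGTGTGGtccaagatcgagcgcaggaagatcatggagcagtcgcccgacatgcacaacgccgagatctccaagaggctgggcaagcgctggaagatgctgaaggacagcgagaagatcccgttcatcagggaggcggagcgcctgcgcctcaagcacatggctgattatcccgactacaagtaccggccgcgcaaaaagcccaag
Sox18: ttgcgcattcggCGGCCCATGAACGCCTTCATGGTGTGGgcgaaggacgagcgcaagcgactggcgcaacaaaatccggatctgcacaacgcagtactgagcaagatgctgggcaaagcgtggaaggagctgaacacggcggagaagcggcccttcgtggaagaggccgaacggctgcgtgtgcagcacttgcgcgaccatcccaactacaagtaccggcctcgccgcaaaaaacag
The Sox9 box lies at chr11:112782891-112783015 in exon 1 and chr11:112783809-112783920 in exon 2 of 3, on the plus strand. Sox4 has a single exon on the minus strand, with the box at chr13:28952617-28952853, and so has Sox11, with the box at chr12:27342034-27342270. The Sox18 box spans exons 1 and 2 of 2 at chr2:181671182-181671293 and chr2:181670872-181670996, on the minus strand.

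Over all pairs of the 10 members, 53.6 to 89.5% of box bases were identical. Sox4 and Sox11 were the closest pair, and their longest run of identical bases was 48, shorter than a read. Sox7 shared 79.7% of bases with Sox17 and 76.8% with Sox18, and Sox9 shared 73.8% with Sox7. No 50-base window of a member's transcripts occurred in another member. The exceptions to a clear assignment were outside the family. Of the Sox4 windows, 54.1% also lie in Gm26735, a noncoding gene on the opposite strand. For Sox17 and Sox21, 15.0% and 17.8% of the windows lie in Gm37587 and Gm4675. For Sox7, 2 of 3250 windows (0.06%) also occur in transcripts of other genes. Gm26735 had an estimated 746, 293 and 372 reads in YAP replicates 1, 2 and 3 and 280, 370 and 119 in BrafYAP replicates 1, 2 and 6, so Sox4 is uncertain to that extent, since no strand was stated for the counting. Gm37587 was at 0 in all 6 libraries, and Gm4675 had 2 reads in YAP replicate 2, the library with the Sox21 reads, and 2 in YAP replicate 3.

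The depth, estimated from the steps between low values, was 26.2 to 36.9 M reads per library. Pearson's r across genes was 0.733 to 0.879 for pairs with BrafYAP replicate 6 and 0.803 to 0.979 for the other pairs, and the lowest value joined BrafYAP replicate 6 with YAP replicate 1. YAP replicate 1 was also at 0.820 and 0.803 with BrafYAP replicates 1 and 2, but at 0.874 and 0.935 with YAP replicates 2 and 3. The 4 epithelial markers Epcam, Cdh1, Krt8 and Krt18 summed to 4556 to 16058 exonic TPM in YAP and 7164 to 16729 in BrafYAP libraries. All 4 were higher in BrafYAP, 1 of them at an unadjusted p under 0.05 and 0 past the threshold. The thyroid markers Pax8 and Nkx2-1 were detected in every library, whereas Tg, the thyroglobulin gene, was at 1.29 and 0.532 exonic TPM in BrafYAP replicates 1 and 2 and between 12.0 and 196 in the others. All 8 thyroid markers summed to 199 to 413 in YAP and 137 to 459 in BrafYAP libraries. Of these 8, 4 were higher and 4 lower in BrafYAP, and 0 were past the threshold. Immune markers, led by the macrophage lysozyme gene Lyz2, summed to 11763 to 40441 in YAP and 3258 to 12650 in BrafYAP libraries, in cells sorted for Kate. Of 8 immune markers, 7 were tested, and all 7 were lower in BrafYAP, 5 of them at an unadjusted p under 0.05 and 0 past the threshold. Fibroblast markers summed to 133 to 258 exonic TPM in YAP and 143 to 284 in BrafYAP, and Schwann cell markers to 24.3 to 40.8 and 30.2 to 35.6. The lymphatic sum, of which Pdpn was the largest part in every library, was 121 to 270 in YAP and 7.29 to 73.7 in BrafYAP. The part of other cell types in the differences below was not tested. In such bulk samples, fewer cells of a type and less RNA per cell cannot be told apart.

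Levels of different genes are compared below as exonic TPM, the estimated reads per exonic base scaled to one common total per library, because the deposited values had been divided by each gene's length with introns. Sox9 was the highest member in both groups, at 9.72 ± 2.81 (SD, n = 3) exonic TPM in YAP and 39.2, 44.5 and 66.3 in BrafYAP replicates 1, 2 and 6. In YAP cells Sox4, at 2.67 ± 0.41 (SD, n = 3), and Sox11, at 1.89 ± 0.60 (SD, n = 3), came next, with overlapping ranges, followed by Sox12 at 0.749 ± 0.440 (SD, n = 3). Sox18, Sox7 and Sox6 were at means of 0.338, 0.281 and 0.217, with overlapping ranges, and Sox21, Sox17 and Sox2 were at 0.0179, 0.0136 and 0. In BrafYAP cells the order after Sox9 was Sox4 at 8.98 ± 5.12 (SD, n = 3), Sox7 at 6.57 ± 1.27 (SD, n = 3), Sox18 at 6.22 ± 9.97 (SD, n = 3) and Sox11 at 0.218 to 3.65, and each overlapped its neighbor. Sox7 thus stood at rank 6 in YAP and rank 3 in BrafYAP cells. Sox9 held 48.1 to 67.2% of the summed level of the 10 members in YAP and 61.9 to 70.7% in BrafYAP libraries.

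**Figure D1:**
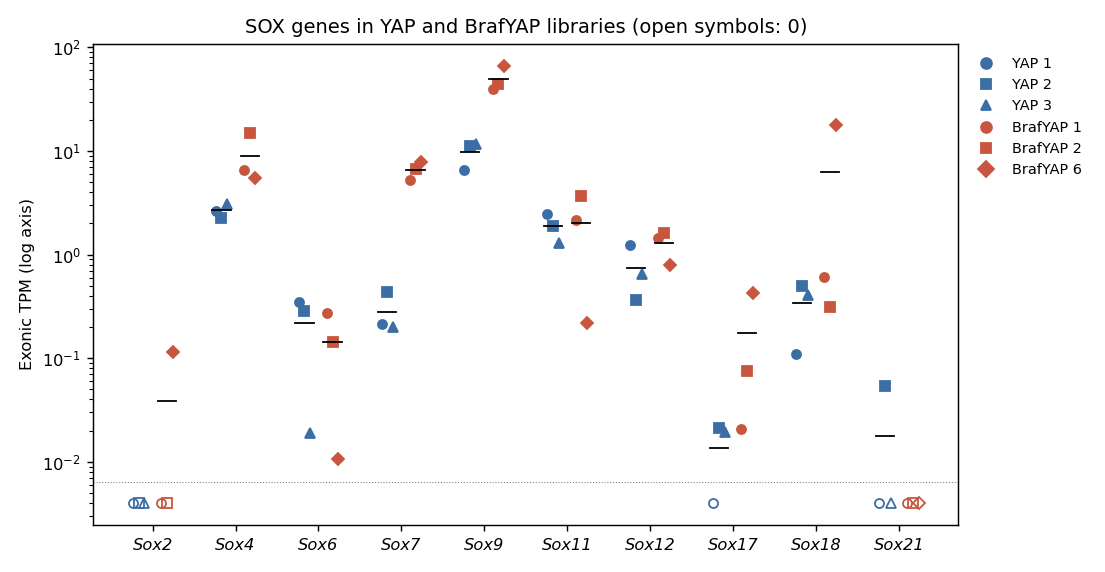
Exonic TPM (log axis) of the 10 SOX genes in each library, blue for YAP and red for BrafYAP, with one symbol per replicate, a black line at each group mean and open symbols for 0. Sox9, Sox7 and Sox4 have all 3 BrafYAP points above all 3 YAP points, and the high Sox18 point is BrafYAP replicate 6.

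BrafYAP was compared with YAP by limma, for genes with a mean deposited value of at least 1 on log2(value + 1), and for lower genes with a mean of at least 10 scaled reads on log2(scaled reads + 1). Scaled reads are the values with the length division undone. Of the 10 members, 3 were tested on the values (Sox4, Sox9 and Sox18), 4 on the scaled reads (Sox6, Sox7, Sox11 and Sox12), and 3 were too low to test (Sox2, Sox17 and Sox21). At an adjusted p under 0.05, 0 of the 7 members passed, and 3 had an unadjusted p under 0.05, all higher in BrafYAP. Over all genes, 18 of 7319 on the values (0.246%) and 0 of 16832 on the scaled reads (0%) passed. Without adjustment, 10.7% of genes on the values were higher and 9.17% lower, and 9.68% and 10.5% on the scaled reads. Sox9, Sox4 and Sox7 were also the 3 members with each BrafYAP library above each YAP library, which held for 11.8% of genes on the values and 11.7% on the scaled reads. On the scaled reads, where all 7 could be fitted, 5 members were higher and 2 lower, with a median log2 fold change of 1.56 against −0.12 for all genes. Of the other SOX genes tested, 1 was higher and 3 lower on that scale, with a median of −0.34. Sox18 entered the test only through 1 BrafYAP library, and the members were chosen with earlier results of these data known. These counts are thus a description of the 10 members and do not show a shift of the family.

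**Figure D2:**
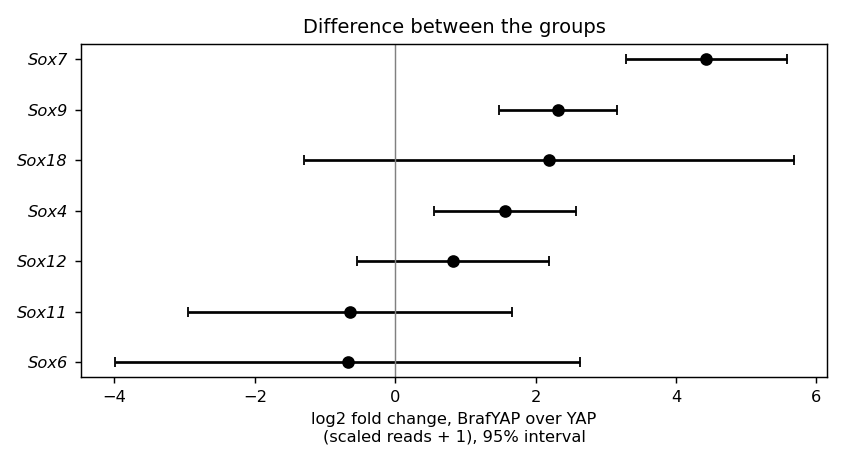
Log2 fold change of BrafYAP over YAP for the 7 tested SOX genes, all on log2(scaled reads + 1), with 95% intervals from limma (n = 3 libraries per group). The intervals of Sox7 (3.29 to 5.57), Sox9 (1.48 to 3.16) and Sox4 (0.56 to 2.57) lie above 0, and those of the other 4 genes cross it.

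Sox9, the member with the highest level, was higher in every BrafYAP library than in any YAP library. Its deposited values were 1.87, 3.30 and 3.17 in YAP replicates 1, 2 and 3 and 10.9, 12.1 and 18.5 in BrafYAP replicates 1, 2 and 6, from an estimated 304, 450 and 513 reads and 1642, 2566 and 3482 reads. YAP replicate 1 was the lowest library and BrafYAP replicate 6 the highest. The log2 fold change was 1.96 ± 0.29 (SE), with a 95% interval of 1.27 to 2.65, and the limma adjusted p was 0.0511, just outside the threshold. On the scaled reads it was 2.32 ± 0.36 (SE), with an adjusted p of 0.0665. With YAP replicate 2 left out, the adjusted p was 0.0362, and with the other libraries left out in turn it stayed over 0.05. Of 17 alternative settings, Sox9 passed in 3. The gene spans chr11:112782224-112787760 on the plus strand, and its overlapping genes numbered 0. The 2 genes whose pattern was most like that of Sox9 over the 6 libraries were Rfk, which encodes riboflavin kinase, with r = 0.996, and Tusc2, with r = 0.991, among 7319 genes.

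Sox7 had few reads in YAP cells and many more in all 3 BrafYAP libraries. An estimated 8, 14 and 7 reads were found in YAP replicates 1, 2 and 3, against 176, 306 and 327 in BrafYAP replicates 1, 2 and 6. The groups were far apart, and the 3 BrafYAP libraries lay close together. The log2 fold change on the scaled reads was 4.43 ± 0.49 (SE), with a 95% interval of 3.29 to 5.57 and a limma adjusted p of 0.0517. Sox7 was number 9 of 16832 genes by p on that scale, and it passed the threshold in 5 of 17 alternative settings, including the epithelial scaling described below. On log2(exonic TPM + 1), where its YAP level is below the pseudocount, the log2 fold change was 2.55. Sox7 met the minimum mean of 1 in that setting only through the BrafYAP libraries (means of 0.281 in YAP and 6.57 in BrafYAP). Its pass with exonic TPM is therefore a description. The gene lies at chr14:63943673-63950732 on the plus strand, with 0 overlapping genes.

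The other SoxF genes differed from Sox7 in which libraries were high. Sox18 had an estimated 2, 8 and 7 reads in YAP replicates 1, 2 and 3, and 10, 7 and 365 in BrafYAP replicates 1, 2 and 6. Only BrafYAP replicate 6 was high, and BrafYAP replicate 2 lay within the YAP range. The log2 fold change on the values was 0.91 ± 0.67 (SE; limma adjusted p = 0.473), and it was 0.05 without BrafYAP replicate 6. On the scaled reads it was 2.19 (limma adjusted p = 0.435). The genes most like Sox18 were Sprr2b, an epidermal cornified envelope gene, with r = 0.999, and Dlk1, a Notch ligand relative, with r = 0.998, each also high in BrafYAP replicate 6 alone. Sox17 had 0, 1 and 1 reads in YAP and 1, 5 and 26 in BrafYAP replicates 1, 2 and 6, and was too low to test. Its highest library was also BrafYAP replicate 6.

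Markers of endothelial cells, in which SoxF genes are known to act, were mostly highest in BrafYAP replicate 6, as Sox18 and Sox17 were. The 15 markers summed to 18.9, 51.7 and 16.0 exonic TPM in YAP replicates 1, 2 and 3 and to 24.8, 12.8 and 162 in BrafYAP replicates 1, 2 and 6. In 14 of the 15 the highest library was BrafYAP replicate 6, and in 11 of 15 it was at least 2 times the next. Kdr was instead highest in YAP replicate 2. Its log2 fold change was −1.80 on the scaled reads (limma adjusted p = 0.437). Plvap, an endothelial diaphragm protein gene, was at 3.23, 1.44 and 36.8 exonic TPM in the BrafYAP libraries, and Cldn5, a tight junction gene, at 0, 0.455 and 12.4. Sox7, in contrast, was at 5.27 and 6.64 exonic TPM in BrafYAP replicates 1 and 2, where the endothelial sum was within or below the YAP range, and at 7.80 in BrafYAP replicate 6. Of the endothelial list, 14 genes were tested, 0 passed, 10 were higher and 4 lower, with a median log2 fold change of 0.68 on the scaled reads. Cldn5 met the minimum mean only through BrafYAP replicate 6, so these counts are a description. It had a mean of 2.32 scaled reads in YAP and 0, 7.06 and 198 in BrafYAP replicates 1, 2 and 6. The part of endothelial cells in the Sox18 and Sox17 levels was not tested.

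**Figure D3:**
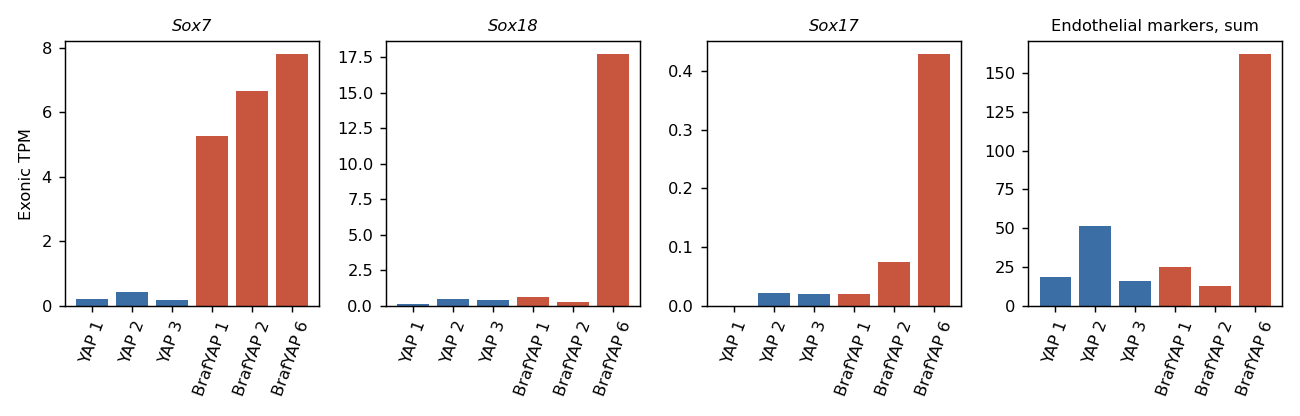
Exonic TPM per library of Sox7, Sox18 and Sox17 and the summed exonic TPM of 15 endothelial markers, each with its own axis from 0, blue for YAP and red for BrafYAP. Sox18, Sox17 and the marker sum peak in BrafYAP replicate 6, whereas Sox7 is at 5.27, 6.64 and 7.80 in the 3 BrafYAP libraries.

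Among the SoxC genes, Sox4 had values of 1.02, 0.908 and 1.13 in YAP replicates 1, 2 and 3 and 2.43, 5.40 and 2.07 in BrafYAP replicates 1, 2 and 6. The groups did not overlap, and BrafYAP replicate 2 was the highest library. Its estimated reads were 143, 107 and 159 in YAP replicates 1, 2 and 3 and 317, 994 and 337 in BrafYAP replicates 1, 2 and 6. Gm26735, which shares 54.1% of the Sox4 windows, had more reads than Sox4 in each YAP library and fewer in each BrafYAP library. The separation of Sox4 therefore depends on how reads were divided between these genes, which was not tested. The log2 fold change was 1.01 ± 0.30 (SE), with a limma adjusted p of 0.139. On the scaled reads it was 1.56 (limma adjusted p = 0.126). The genes most like Sox4 were Gm9770, with r = 0.972, and Igfbp4, an insulin-like growth factor binding protein gene, with r = 0.970. Sox11 had an estimated 234, 155 and 114 reads in YAP replicates 1, 2 and 3 and 180, 424 and 23 in BrafYAP replicates 1, 2 and 6. The BrafYAP libraries thus held both the highest and the lowest level, the log2 fold change was −0.64 ± 0.98 (SE; limma adjusted p = 0.736), and it turned to 0.56 without BrafYAP replicate 6. Sox12 had 62, 16 and 31 reads in YAP and 65, 101 and 45 in BrafYAP replicates 1, 2 and 6, and the groups overlapped. The BrafYAP mean was 0.82 ± 0.58 (SE) above the YAP mean on the log2 scale (limma adjusted p = 0.455).

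YAP acts with TEAD factors, which bind GGAATG, so the sequence before the Sox4 start is shown with that motif in capitals. The 250 bases before the RefSeq start, at chr13:28953700-28953949 of GRCm38.p6, are printed 5′ to 3′ on the minus strand.
Sox4 upstream: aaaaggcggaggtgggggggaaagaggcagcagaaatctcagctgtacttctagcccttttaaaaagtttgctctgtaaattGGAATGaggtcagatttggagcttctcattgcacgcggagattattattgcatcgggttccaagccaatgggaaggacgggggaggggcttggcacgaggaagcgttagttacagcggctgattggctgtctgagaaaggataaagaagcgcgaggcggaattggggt
The motif begins 168 bases before the start. Searched on both strands, it was in 12.6% of 32851 windows of this length. Windows were matched by symbol for 6 of the 10 members, all but Sox7, Sox9, Sox17 and Sox18, which gave 11 windows. The motif was in 3 of the 11, the Sox4 window and 2 of the Sox6 windows. A match is a description of the letters and not evidence of binding.

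Sox6, Sox2 and Sox21 were low. Sox6 had an estimated 58, 42 and 3 reads in YAP replicates 1, 2 and 3 and 41, 30 and 2 in BrafYAP replicates 1, 2 and 6. One library in each group was near 0, and the groups overlapped. The log2 difference was −0.68 ± 1.41 (SE), with a limma adjusted p of 0.808, and it turned to 0.52 without BrafYAP replicate 6 and to 0.0045 without YAP replicate 1. Sox2 was at 0 in 5 libraries and at 3 reads in BrafYAP replicate 6. Sox21 had 2 reads in YAP replicate 2 and 0 elsewhere. The difference of neither Sox2 nor Sox21 was detectable at this depth.

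The 3 members whose groups did not overlap were also read against the 4 epithelial markers, a choice made after seeing the data. Per 1000 units of the marker sum, Sox9 was at 1.43, 1.599 and 0.722 in YAP replicates 1, 2 and 3 and at 2.34, 4.05 and 9.25 in BrafYAP replicates 1, 2 and 6. Sox7 was at 0.0470, 0.0624 and 0.0123 against 0.315, 0.605 and 1.09. Both kept the BrafYAP libraries above the YAP libraries. Sox4 was at 0.578, 0.329 and 0.193 against 0.391, 1.35 and 0.773, so its groups overlapped. Scaled in this way across all genes, the log2 fold change was 1.58 for Sox9 (limma adjusted p = 0.288), 3.97 for Sox7 (limma adjusted p = 0.00504) and 0.70 for Sox4 (limma adjusted p = 0.714). The SE of Sox7 was then 0.99, against 0.49 without this scaling, and limma took the spread wholly from the trend over all genes (prior degrees of freedom without limit, against 3.25), so the smaller p of Sox7 does not show a clearer separation. The scaling moved the median of all genes by −0.37 on the values and −0.46 on the scaled reads.

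**Figure D4:**
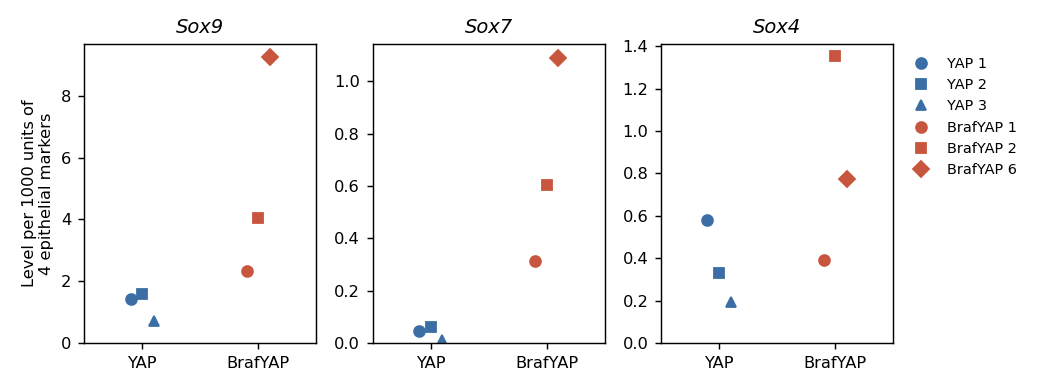
Level of Sox9, Sox7 and Sox4 per 1000 units of the summed epithelial markers (both exonic TPM, axes from 0), with one symbol per library. The groups are apart for Sox9 and Sox7, while the lowest BrafYAP value of Sox4 (0.391) is below the highest YAP value (0.578).

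Other SOX genes and genes known to work with the members were read from lists, and 0 genes of these lists passed the threshold. List counts and medians are on the scaled reads, where the median over all genes was −0.12, and a single gene with a mean value of at least 1 is given on the values unless stated. Of 7 other SOX genes in the table, 4 were tested, 1 higher and 3 lower, with a median log2 fold change of −0.34. Sox5, a SoxD partner of Sox6, was at 0.916, 0.906 and 0.774 exonic TPM in YAP and 0.254, 0.174 and 0.372 in BrafYAP replicates 1, 2 and 6, lower in each BrafYAP library (log2 fold change −1.78 ± 0.43 SE, limma adjusted p = 0.108). Sox8, the SoxE relative of Sox9, ranged from 3.03 to 17.3 in YAP and from 0.429 to 38.6 in BrafYAP libraries, and its groups overlapped. Its log2 fold change was 0.25 on the values and −0.32 on the scaled reads, so that its direction depends on the scale. Sox10, a SoxE gene of Schwann cells, was too low to test.

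Among the 4 TCF/LEF factors, which share the HMG box and act in Wnt signaling, 2 were higher and 2 lower, with a median of −0.16. Lef1 was at 0.211, 0.397 and 0.213 exonic TPM in YAP and at 1.37, 1.78 and 0.658 in BrafYAP replicates 1, 2 and 6 (log2 fold change 2.07 ± 0.54 SE, limma adjusted p = 0.117). Of 12 chondrocyte genes linked to Sox9, 5 were tested, 2 higher and 3 lower, with a median of −1.10. The collagen gene Col2a1 and the proteoglycan gene Acan, both direct Sox9 targets in cartilage, were at most 0.256 and 0.0661 exonic TPM. Col9a1, another cartilage collagen gene, was at 1.01, 0.301 and 0 in YAP and 2.18, 0.509 and 31.2 in BrafYAP replicates 1, 2 and 6. Its groups overlapped, and BrafYAP replicate 6 was far above the other libraries (log2 fold change 4.15 ± 1.88 SE, limma adjusted p = 0.270). Comp, a cartilage matrix gene, was at 0.0595, 0.514 and 0.598 in YAP and 0.832, 1.23 and 9.44 in BrafYAP replicates 1, 2 and 6 (limma adjusted p = 0.238).

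Of 6 neuronal genes linked to SoxC factors, 5 were tested, 0 higher and 5 lower, with a median of −0.11. Tubb3 and Stmn2 turned with the scale, at 0.20 and 0.29 on the values and −0.11 and −0.03 on the scaled reads. Stmn1, a microtubule regulator, was at 217, 134 and 195 exonic TPM in YAP and 76.4, 61.0 and 42.7 in BrafYAP replicates 1, 2 and 6 (log2 fold change −1.54 ± 0.30 SE, limma adjusted p = 0.0826). Of 7 endoderm factors, 4 were tested, 2 higher and 2 lower, with a median of −0.41. Foxa2, a pioneer factor of foregut endoderm, was at 0.0373, 0.0859 and 0.394 in YAP and 7.63, 5.59 and 19.6 in BrafYAP replicates 1, 2 and 6, higher in each BrafYAP library (log2 fold change 1.59 ± 0.33 SE, limma adjusted p = 0.0863). Its YAP values were far below the pseudocount, and on the scaled reads the log2 fold change was 5.87 ± 0.81 SE (limma adjusted p = 0.0589). Foxa2 entered both tests only through the BrafYAP libraries, so these results are a description. Its YAP means were 0.0373 on the values and 4.59 scaled reads, against 2.36 and 291 in BrafYAP. Of 6 airway and basal genes, 5 were tested, 4 higher and 1 lower, with a median of 0.03. Muc5b, an airway mucin gene, was at 0, 0.0068 and 0.0187 in YAP and 0.191, 0.201 and 3.38 in BrafYAP replicates 1, 2 and 6 (limma adjusted p = 0.104). With a mean of 1.44 scaled reads in YAP and 212 in BrafYAP, it entered the test only through the BrafYAP libraries. Its values are a description.

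**Figure D5:**
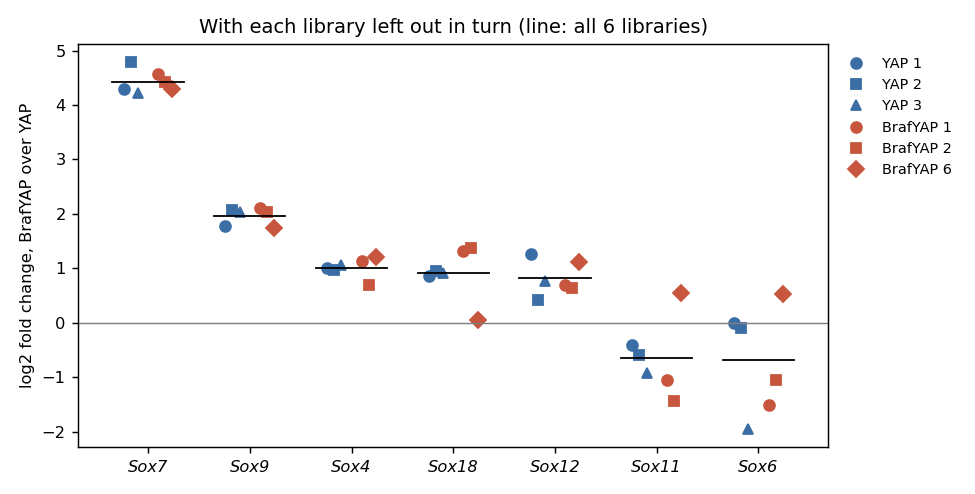
Log2 fold change of BrafYAP over YAP for the 7 tested SOX genes with each library left out in turn, one symbol per library left out, and a black line for all 6 libraries (Sox9, Sox4 and Sox18 on log2(value + 1), the others on log2(scaled reads + 1)). Sox7 stays between 4.21 and 4.78 and Sox9 between 1.75 and 2.10, while Sox11 (−1.43 to 0.56) and Sox6 (−1.94 to 0.52) cross 0.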

How the data were processed

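Kate-positive cells from mouse thyroid tumors gave 3 YAP and 3 BrafYAP libraries, grouped by their titles. RNA was amplified with SMART-Seq v4 (12 cycles), libraries had 8 PCR cycles, and 50-base paired reads were sequenced. With STAR 2.6.1d the authors mapped the reads to mm10, then quantified them in Partek and deposited TPM with 0.0001 added, as 1 table of 35027 genes. Column totals were 181217.6. Low deposited values (up to 200 reads) lay within 0.05 of a whole multiple of 1 step for 71.7 to 76.1% of genes with the genomic span of GENCODE M21 and 22.4 to 25.1% with the exonic length. Estimated reads (26.2 to 36.9 M per library) use the span, for 34640 genes at 1 locus. They need not be whole, and PCR duplicates carry no molecular identifier, so they cover counting error only. 

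limma 3.58.1 in R 4.3.3 (lmFit, eBayes with a trend, two-sided, Benjamini-Hochberg over all genes) was used on log2(value + 1), without covariates, since TPM are not counts. A pseudocount of 1 understates the change of low genes. The script was tested on simulated data. In the study's methods each replicate is 1 tumor, with no mouse giving more, whereas the labels give pools of 3 tumors for YAP, and the labels were followed. The start of doxycycline in the labels is that of the methods text, and the results text gives a later one. All 10 members are named, with the 2 genes most like each member of mean value 1 or more, and from each list the genes of smallest unadjusted p, at most 4. Some other listed genes, such as Cldn5, are named as examples outside this rule. Members and lists were chosen with earlier results of these data known. Alternatives are given in the closing section. Sequences came from GENCODE M21 transcripts and RefSeq (GRCm38.p6). Some listed items are not reported here.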

Additional observations from a re-analysis of the deposited data

How the results depend on the processing

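Sox7 and Sox9 kept their direction in all 17 alternatives fitted for each, and so did Sox4, Sox12 and Sox18. The log2 fold change ranged from 2.55 to 4.78 for Sox7, the lowest with exonic TPM, and from 1.58 to 2.33 for Sox9. The number of SOX genes past the threshold was 0 of 7. It became 3 with array weights, 2 with quantile normalization, and 1 with eBayes without a trend, with exonic TPM or when scaled to the epithelial markers (chosen after seeing the data), and 0 to 1 with a library left out, the 1 being Sox9 without YAP replicate 2. Sox7 passed with array weights (limma adjusted p = 0.00455), quantile normalization (0.0331), no trend (0.0421), exonic TPM (0.0312) and the epithelial scaling (0.00504, with an SE of 0.99 against 0.49), Sox9 with array weights (0.00489) and quantile normalization (0.0391), and Sox4 with array weights (0.0282). With exonic TPM, Sox7 met the minimum mean only through the BrafYAP libraries, so that pass is a description. Over the alternatives the limma adjusted p was 0.00455 to 0.248 for Sox7, 0.00489 to 0.288 for Sox9 and 0.0282 to 0.714 for Sox4.

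Sox6 turned to 1.43 with array weights, and leaving out a library gave −1.94 to 0.52 (0.0045 without YAP replicate 1). Sox11 turned to 0.58 with array weights, and leaving out a library gave −1.43 to 0.56. The cause was not tested.

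Over all genes, the number past the threshold on the values (18) became 1 with a pseudocount of 0.1, median-ratio rescaling or no trend, 3 with a minimum mean of 10, 0 without a filter, 79 with quantile normalization, 1393 with array weights, 63 with exonic TPM and 148 with the epithelial scaling, and 0 to 475 with a library left out, the 475 without YAP replicate 2. On the scaled reads the 0 became 62 with quantile normalization, 20 without a trend, 1886 with array weights and 546 with the epithelial scaling, and 0 to 45 with a library left out, the 45 without BrafYAP replicate 6.

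The groups share the replicate numbers 1 and 2 only, and the deviations of same-numbered libraries correlated at −0.05 and 0.06, so the numbers do not pair them. With the replicate number as a block, 0 SOX genes and 0 genes on the values passed (987 at an unadjusted p under 0.05), Sox9 was at 1.83 and Sox7 at 4.07, and Sox11 turned to 0.27. That fit compares replicates 1 and 2 only, because YAP replicate 3 and BrafYAP replicate 6 each take a block of their own. With 3 libraries per group and under 30 reads per library for Sox2, Sox17 and Sox21, depth limits what can be said of these genes.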
